A study of Mus musculus with 6 samples.

Results

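The genes described here are 32 that mark macrophages and other white blood cells of the mouse fetus, followed in whole embryonic kidneys with and without Ret. They are members of a list fixed by name, and every probe set whose single gene symbol in the array annotation is on that list was taken, which gave 53 probe sets of 32 genes among 18193 genes with such a symbol. The members fall into 6 pan-leukocyte genes (Ptprc, Cd53, Coro1a, Lcp1, Lcp2 and Laptm5), 14 broad myeloid genes and 12 genes of resident macrophages. Kidneys came from C57BL/6 embryos at embryonic day 12.5. There were 3 wild-type and 3 Ret-deficient biological replicates with 1 Affymetrix array each. Ret encodes the receptor for GDNF on the ureteric bud, the epithelium that branches into the collecting ducts. The titles and the genotype field call the kidneys themselves Ret-deficient, while another label assigns the knockout to the mother, and the titles were followed here. Which allele was used, which litters the kidneys came from and how many embryos made a sample is not stated, so the p-values measure the spread between these samples and the spread between arrays may include differences between litters or dissections.

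Macrophages of the early embryo arise in the yolk sac and fetal liver and settle in organs. They depend on the receptor CSF1R, whose ligands are CSF1 and IL-34. PU.1, the product of Spi1, is the transcription factor that commits cells to this lineage. In developing organs they are known for clearing dying cells, for taking up nuclei that red cells expel, and for contacts with growing vessels. Complement C1q, scavenger receptors and lysosomal proteases are typical products of the resident cells. CD45, coronin and plastin are shared by nearly all white blood cells.

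Each deposited value is a signal on a linear scale, and all 6 arrays have a trimmed mean signal of 2500. A value therefore says how bright a gene was beside all other RNA of that sample. Ret itself read between 10193 and 13315 on the wild-type arrays and 93.3, 479.8 and 334.1 on Ret-deficient replicates 1, 2 and 3, as the labels have it. As a gauge of background, the brightest of 27 bacterial control probe sets read from 97.2 to 186.9. Of the nephron progenitor markers, such as Six2, 6 of 6 measured genes lay above this gauge on all arrays. Cartilage markers did so in 4 of 5 genes, so the count does not tell kidney from neighbouring tissue. In 2 arrays other features stood apart before any macrophage gene was considered. The ratio of 3 prime to 5 prime signal, a measure of RNA integrity, was 10.7 for beta-actin in wild-type replicate 1 against 3.88 to 5.21 in the others. In Ret-deficient replicate 1 the ureteric epithelium markers summed to 5842 signal units, against 43003 to 77218 in the other arrays.

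No member passed the test between genotypes. Differences were taken on log2(signal + 16) as Ret-deficient minus wild-type, and tested with limma, a linear model that pools the variance over all probe sets. The 22519 brighter probe sets were tested, and among them were 30 member probe sets of 22 genes. Of these 30, 0 passed an adjusted p of 0.05, and of the 22519 also 0 did (0%). Ret itself, with a log2 difference of -5.43 (SE 0.54), had a limma adjusted p of 0.30 and did not pass either. A count of 0 is therefore no sign that genes were unchanged. At an unadjusted p under 0.05 there was 1 of 30, the Aif1 probe set, beside 5.36% of all tested probe sets. The Aif1 probe set passed the brightness filter only through its high Ret-deficient values. In 2 of the 30, of Coro1a and Aif1, the Ret-deficient arrays lay wholly above the wild-type arrays, where 5.19% of all tested probe sets did so. In 0 of 30 they lay wholly below (5.57% of all). These shares are close to the background. The other 10 genes had no probe set bright enough to be tested and are described by their values further on.

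Most members were highest on the same array. Of the 22 genes with a tested probe set, each represented by its brightest, 18 read highest of all 6 arrays in Ret-deficient replicate 3, which was so for 19.1% of all 11592 tested genes. In 13 of the 22 that array read more than 1.5 times every other array, beside 2.39% of all genes. Replicates 1, 2 and 3 of the Ret-deficient kidneys read above every wild-type array in 10, 3 and 18 of the 22 members, beside 29.1%, 28.2% and 27.9% of all genes. Relative to the wild-type mean, the all-member median on the log2 scale was 0.43, -0.21 and 1.35 in these replicates, and at most 0.13 in a wild-type array. The array was singled out after its values were seen, so the counts are a description and carry no test. More macrophages in that sample and more RNA of these genes per macrophage cannot be told apart in whole-kidney RNA. Because the filter used the mean of all 6 arrays, Aif1 (mean 309.5 at a limit of 304.5) and Cx3cr1 passed only through high Ret-deficient values. With a filter on the wild-type mean alone, chosen after seeing the data, 20 members remained. Among these, 16 were highest in that array and 11 by more than 1.5 times, beside 18.5% and 2% of all genes. With no filter the counts were 21 and 14 of 32, beside 17.5% and 3.34%.

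**Figure D1:**
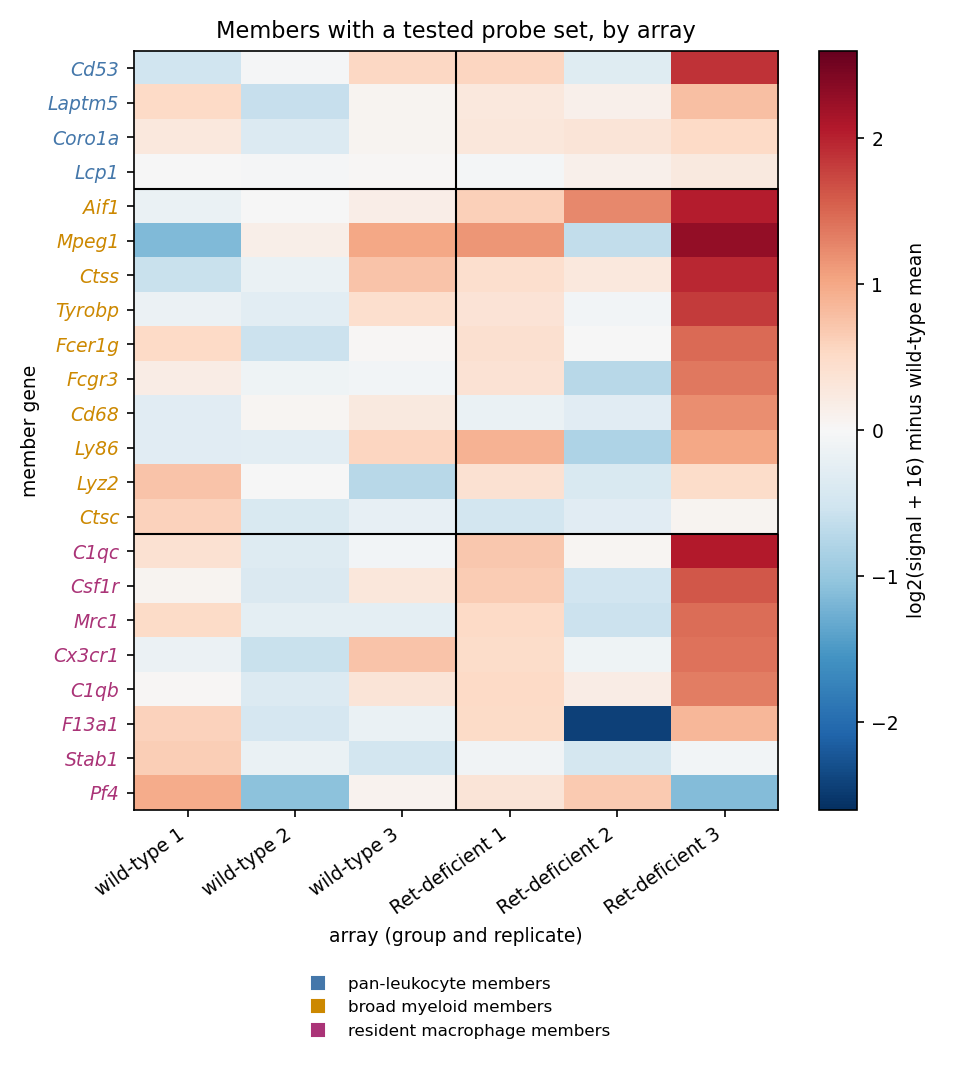
Heat map of the 22 members with a tested probe set (rows, coloured by class) on the 6 arrays (columns), with colour for log2(signal + 16) minus the wild-type mean of the gene. The column of Ret-deficient replicate 3 is red for most myeloid and resident macrophage genes, while Pf4, Stab1 and Ctsc are not raised there.

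Among the resident macrophage members, Csf1r, the receptor on which the lineage depends, was measured by 3 probe sets. The brightest read 5869, 4312 and 6866 in wild-type replicates 1, 2 and 3 and 8846, 3941 and 17208 in the Ret-deficient ones. Ret-deficient replicate 3 was the highest, replicate 2 lay below every wild-type array, and the groups overlapped. The group means were 5682 ± 1287 and 9998 ± 6708 (mean ± SD, n = 3 each). The log2 difference was 0.59 (SE 0.52, 95% interval -0.64 to 1.83, limma adjusted p = 0.95). It was 0.081 without Ret-deficient replicate 3 and 1.14 without replicate 2. The dimmer probe sets had the same order of Ret-deficient arrays, with 1636, 499.7 and 3879 in one and 517.9, 265.2 and 882.2 in the other, and log2 differences of 0.37 and 0.59.

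The 3 chains of complement C1q, which assemble into the molecule that binds immune complexes and dying cells, were likewise highest in Ret-deficient replicate 3. The brightest C1qb probe set read 14880, 11346 and 18415 in wild-type and 20971, 16593 and 36742 in Ret-deficient kidneys. Its log2 difference of 0.68 (SE 0.34, interval -0.12 to 1.48) gave an adjusted p of 0.94. A second C1qb probe set read 8717, 5897 and 24323 in the Ret-deficient kidneys against 6459 to 9075 in wild-type. Both carry the suffix x, which marks probe sets that can also bind other transcripts. The third, without that suffix, read 399.4, 624.3 and 831.1 in wild-type and 1108, 424.0 and 2964 in Ret-deficient kidneys. Replicate 3 thus read highest on each, at 4.79 times the wild-type mean on the plain probe set and 2.47 and 3.31 times on the others. C1qc read 521.6, 311.0 and 377.1 against 646.5, 409.1 and 1707, a log2 difference of 0.94 (SE 0.51, adjusted p = 0.94), which was 0.37 without replicate 3. C1qa was too dim to be tested, at 53.9, 83.3 and 235.2 against 153.1, 185.6 and 456.6. Its lowest wild-type values lay under the brightest bacterial control of their array, so no fold is given, and its highest value was again in replicate 3.

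Mrc1, the mannose receptor, read 1260, 744.5 and 745.7 in wild-type and 1271, 598.3 and 2448 in Ret-deficient kidneys. Replicate 3 stood above all others and replicate 2 below all others, and the log2 difference was 0.47 (SE 0.51, adjusted p = 0.96). It was -0.024 without replicate 3. Cx3cr1, the fractalkine receptor of tissue macrophages and microglia, read 230.9, 168.4 and 442.7 against 367.2, 239.1 and 713.6. Its log2 difference was 0.59 (SE 0.48, adjusted p = 0.95), and a dimmer probe set lay above the bacterial controls on 1 of 6 arrays. For Csf1r, C1qb, C1qc, Mrc1 and Cx3cr1 alike, Ret-deficient replicate 3 was the top array and stood 2.47 to 4.23 times above the wild-type mean on the brightest probe set.

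Of the other tested resident macrophage members, Stab1 and Pf4 did not peak in that array, and F13a1 did so by a small margin over wild-type replicate 1. Stab1, the scavenger receptor stabilin that sinusoidal and lymphatic endothelium also make, read 10953, 6187 and 5031 in wild-type and 6515, 5120 and 6687 in Ret-deficient kidneys. The highest value was in wild-type replicate 1, the array with the high 3 prime to 5 prime ratio. Its log2 difference was -0.20 (SE 0.31, adjusted p = 0.97), and 0.12 without that array. F13a1, the coagulation factor XIII subunit of macrophages and platelets, read 1918, 922.5 and 1111 against 1773, 220.8 and 2293. Ret-deficient replicate 2 read 0.17 times the wild-type mean. With all arrays the log2 difference was -0.35 (SE 0.85, adjusted p = 0.98), and without replicate 2 it was 0.68.

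Pf4, platelet factor 4, is made by megakaryocytes and also by fetal macrophages. It read 20719, 5079 and 11278 in wild-type and 13381, 16872 and 4857 in Ret-deficient kidneys, so the array that was highest for Csf1r was the lowest for Pf4. The log2 difference was -0.038 (SE 0.64, interval -1.56 to 1.48, adjusted p = 0.999), and 0.50 without Ret-deficient replicate 3. Without wild-type replicate 1 it was 0.45. Markers of megakaryocytes and platelets had a similar order. Their signals summed to 11454, 2480 and 6765 in wild-type and 10834, 7687 and 3123 in Ret-deficient kidneys. Wild-type replicate 1 led in both, and wild-type replicate 2 and Ret-deficient replicate 3 were the lowest pair in both. Ppbp, a platelet chemokine named outside the rule of smallest p, read 6503, 1051 and 3244 against 4501, 4078 and 1105. It made up much of the sums. Treml1 and Itga2b were also highest in wild-type replicate 1. Gp9 and Gp1bb were highest in Ret-deficient replicate 1 instead, at 891.1 and 3248, against 529.3 and 2162 in wild-type replicate 1. Of the 5 tested genes of this list 0 passed in either direction. The part of these cells in the Pf4 values was not tested.

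**Figure D2:**
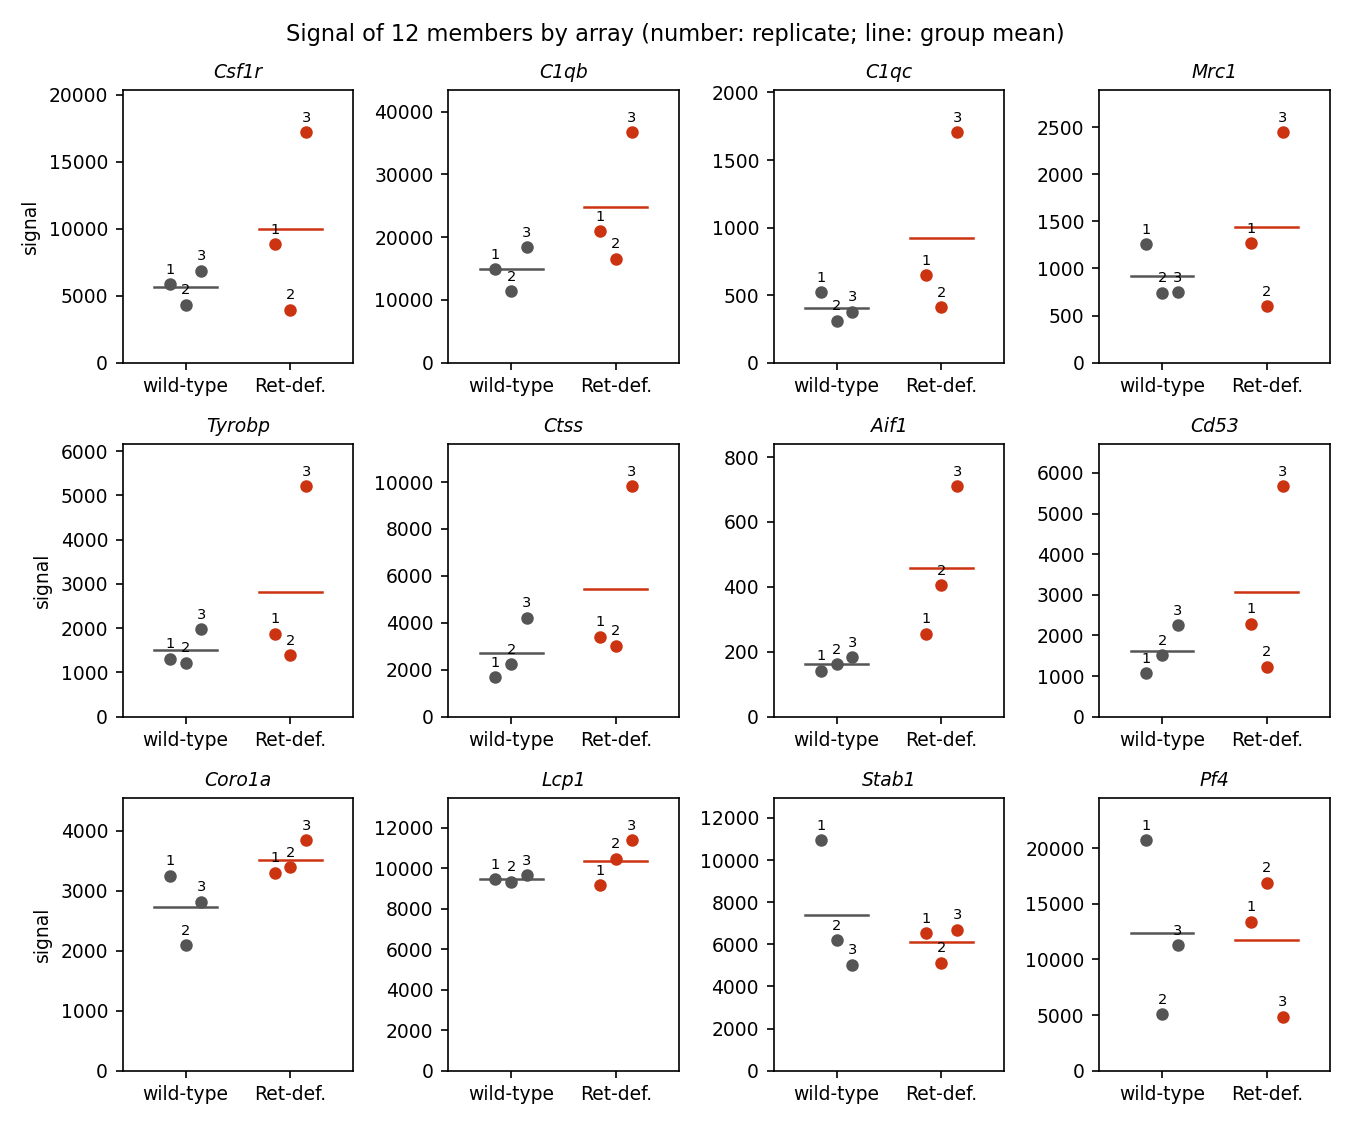
Signal (linear axis from 0) of 12 members, 1 panel each, with a point per array labelled by replicate number and a line at the group mean of 3 arrays. Csf1r, C1qb, C1qc, Mrc1, Tyrobp, Ctss, Aif1 and Cd53 peak in Ret-deficient replicate 3, Lcp1 stays between 9156 and 11405, and Stab1 and Pf4 peak in wild-type replicate 1.

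Among the tested broad myeloid members, Aif1 had the smallest limma p. It passed the brightness filter only through its high Ret-deficient values, so its p and interval are no support for a difference. It encodes Iba1, a calcium-binding protein of macrophages and microglia. It read 141.3, 160.8 and 182.8 in wild-type and 256.3, 404.9 and 710.9 in Ret-deficient kidneys, so the groups did not overlap. The means were 161.6 ± 20.8 and 457.4 ± 231.8, a log2 difference of 1.30 (SE 0.35, interval 0.46 to 2.15). It did not pass over all probe sets (unadjusted p = 0.0085, limma adjusted p = 0.86, range 0.326 to 0.998 over the alternatives). An exact permutation test, two-sided, had p = 0.1, the smallest that 3 arrays against 3 allow. Without Ret-deficient replicate 3 the difference was 0.94. The wild-type values are close to background, as the value of replicate 1 lay under the brightest control of its array.

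Tyrobp and the Fc receptor genes had their Ret-deficient arrays in the order of Csf1r, with replicate 3 highest and replicate 2 lowest. Tyrobp, which encodes the adaptor DAP12, read 1310, 1218 and 1979 in wild-type and 1876, 1388 and 5214 in Ret-deficient kidneys. Its log2 difference was 0.70 (SE 0.49, adjusted p = 0.95), and 0.14 without replicate 3. Fcer1g, the common gamma chain of Fc receptors, read 2595, 1222 and 1823 against 2409, 1784 and 4991, with a difference of 0.63 (SE 0.44, adjusted p = 0.95). Fcgr3, an Fc receptor that uses this chain, read 439.7, 352.7 and 362.2 against 504.6, 226.1 and 1016. In each of these genes replicate 3 was the highest array, and for Fcgr3 the sign turned without it (0.34 with it, -0.17 without). Ly86, the partner of the receptor CD180, read 298.0, 301.5 and 549.6 against 698.7, 203.8 and 755.6, a difference of 0.37. Here Ret-deficient replicate 1 was nearly as high as replicate 3.

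Lysosomal and effector genes were divided. Ctss, the protease cathepsin S, read 1669, 2224 and 4220 in wild-type against 3416, 3024 and 9829, a log2 difference of 0.89 (SE 0.53, adjusted p = 0.94). Mpeg1, the pore-forming protein perforin-2, read 275.5, 697.3 and 1272 against 1407, 398.8 and 3114. Its difference of 0.93 had an interval from -1.04 to 2.90. Cd68, a glycoprotein of macrophage lysosomes, read 530.0 to 786.2 in wild-type and 582.0, 530.5 and 1545 in Ret-deficient kidneys. Without replicate 3 its difference of 0.25 became -0.24. In contrast, Ctsc, the protease cathepsin C, was highest in wild-type replicate 1 at 4958, with 2343 to 3457 in the Ret-deficient arrays and a difference of -0.24 (SE 0.30). That became 0.062 without wild-type replicate 1. Lyz2, lysozyme, read 261.7 to 754.5 against 332.7 to 628.5 and differed by 0.16. Thus Ctsc and Lyz2 lacked the high value in replicate 3 that Ctss, Mpeg1 and Cd68 had.

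Among the pan-leukocyte members, Cd53, a tetraspanin of white blood cells, went with the macrophage genes. It read 1073, 1513 and 2257 in wild-type and 2292, 1231 and 5677 in Ret-deficient kidneys, with a log2 difference of 0.70 (SE 0.56, adjusted p = 0.95) and of 0.12 without replicate 3. The other 3 tested members lay closer together across the arrays. Lcp1, the actin-bundling protein L-plastin, read 9479, 9351 and 9658 against 9156, 10478 and 11405. Its difference of 0.12 (SE 0.16) had an interval from -0.26 to 0.49. On this brighter probe set, a change of more than 1.41 times in either direction lies outside that interval. Coro1a, the actin regulator coronin, read 3247, 2095 and 2817 against 3297, 3388 and 3843 on its brighter probe set. Those groups did not overlap (log2 difference 0.39, SE 0.21, adjusted p = 0.94, exact permutation p = 0.1). On the dimmer tested probe set they did overlap (0.20). Laptm5, a lysosomal membrane protein of blood cells, read 8949, 4122 and 6565 against 7513, 6851 and 10767 on a probe set with the suffix x, a difference of 0.40 (SE 0.33). The other tested probe sets of Laptm5 had differences of 0.19 and 0.14. The dimmer tested probe set of Lcp1 had -0.065, with a wider interval from -0.65 to 0.52.

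**Figure D3:**
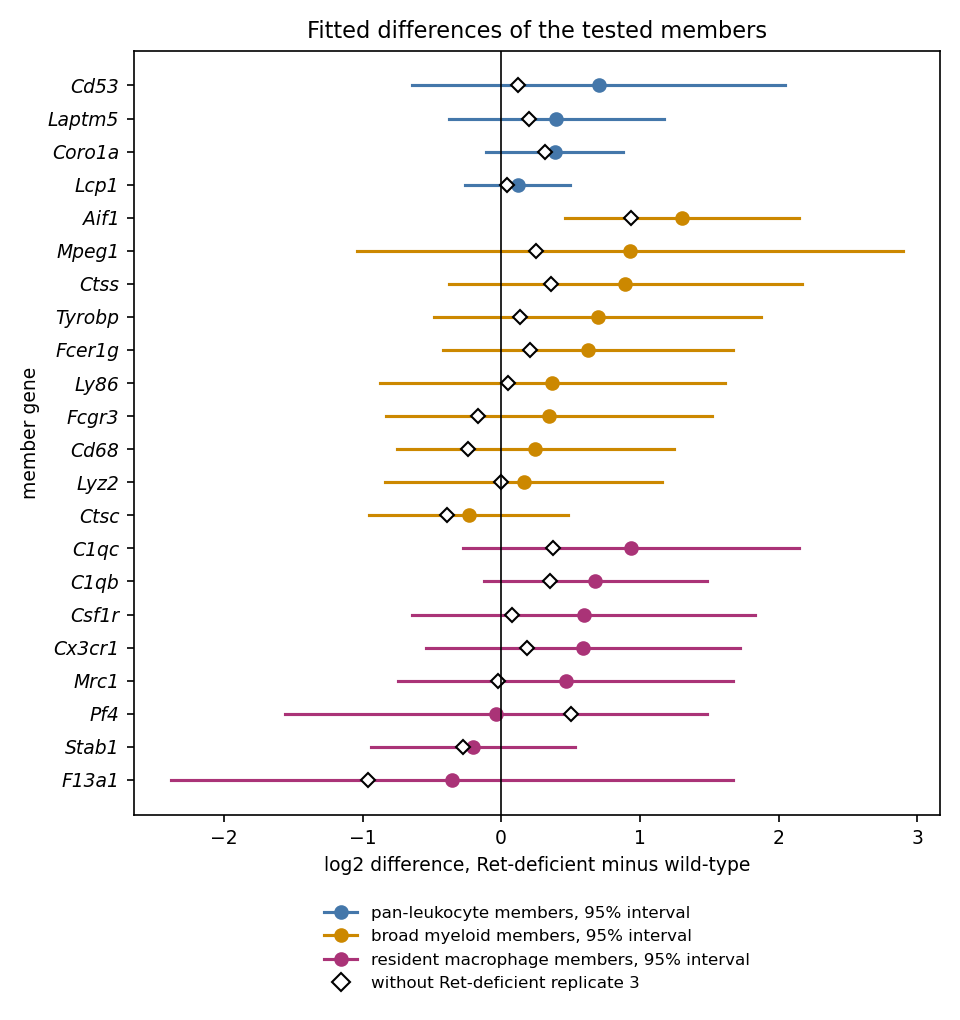
Log2 difference (horizontal axis, Ret-deficient minus wild-type) of the 22 tested members, with filled points and 95% limma intervals from all 6 arrays and open diamonds for the value without Ret-deficient replicate 3. Aif1, which passed the brightness filter only through its high Ret-deficient values, has the interval that lies wholly above 0, before any adjustment. Most diamonds of the other genes lie nearer 0 than the filled points.

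Set side by side, the classes had similar medians between genotypes with the main filter but unlike sizes in Ret-deficient replicate 3. The median log2 difference was 0.39 over the 4 tested pan-leukocyte members, 0.50 over the 10 broad myeloid and 0.53 over the 8 resident macrophage members, beside 0.0030 over all 11592 tested genes. Over the 22 tested members it was 0.43, with 18 positive and 4 negative, where 50.5% of all tested genes were positive. With no filter, and so over all 32 members, it was 0.43 as well. With the filter on the wild-type mean alone, the pan-leukocyte, broad myeloid and resident medians were 0.39, 0.37 and 0.47. With the brightest 30 percent they were 0.39, 0.66 and 0.28, so the order of the classes depended on the filter. By array, relative to the wild-type mean, the pan-leukocyte median was 0.28, 0.14 and 0.65 on the log2 scale for Ret-deficient replicates 1, 2 and 3. The resident macrophage median stood at 0.50, -0.28 and 1.37, and the broad myeloid median at 0.41, -0.30 and 1.42. The wild-type arrays ranged from -0.19 to 0.14, from -0.37 to 0.44 and from -0.17 to 0.21 in these classes. So the resident and myeloid classes spread more widely among the Ret-deficient arrays than the pan-leukocyte class, with no test of that difference. Without Ret-deficient replicate 3 the medians of the pan-leukocyte, broad myeloid and resident classes were 0.16, 0.092 and 0.13. Without replicate 2 they were 0.47, 0.95 and 0.93, and without wild-type replicate 2 they were 0.16, 0.32 and 0.32.

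The members too dim to be tested, 10 in number, were Ptprc, Lcp2, Spi1, Itgam, Cybb, Cd14, Trem2, C1qa, Cd163 and Lyve1. Cd14, the co-receptor for bacterial lipopolysaccharide, read 111, 11 and 69.1 in wild-type and 339.7, 181.1 and 228.4 in Ret-deficient kidneys. The groups did not overlap, and each wild-type value lay under the brightest control of its array while each Ret-deficient value lay above it, so no fold is given. In a fit with no filter its adjusted p was 0.96 (unadjusted p = 0.0173), with 0.1 by exact permutation. Replicate 1 was its highest array, not replicate 3. Spi1 read 72.8, 200.2 and 122.2 against 201.9, 166.0 and 197.1. Ptprc, which encodes CD45, read 330.7, 112.2 and 228.3 against 214.4, 212.5 and 456.8 on its brighter probe set, again highest in replicate 3. Lcp2, the adaptor SLP-76, read 397.2, 161.2 and 169.6 against 402.3, 235.4 and 454.7. Both overlapped between the groups.

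The rest of the dim members were at or near background. Trem2, a lipid receptor of microglia and other macrophages, and Cd163, the haptoglobin-haemoglobin receptor, had no probe set above the bacterial controls on any array. The highest Cd163 value was 65.2 and the highest Trem2 value 170.3, in wild-type replicate 1 with a control of 186.9. Itgam, the integrin CD11b, lay above its control on 1 array at 117.8. Cybb, the catalytic subunit of the phagocyte oxidase, read 95.9 to 316.6 in wild-type and 100.4 to 297.0 in Ret-deficient kidneys. Lyve1, a hyaluronan receptor of lymphatic vessels and perivascular macrophages, read 31.4 to 224.8 against 81.7 to 145.0 on the brighter probe set, with 1 array of each group above its control. Such values set no order between genotypes, and a low signal may also come from how well a probe set binds.

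Promoter sequences are shown for the members that hold a core of the PU.1 binding site, because Spi1 is itself a member. From the RefSeq promoter table (GRCm38.p6, 250 bases before to 50 after the start), 26 of the 32 members matched by symbol. The letters GAGGAAGT were searched on both strands, where the reverse reads ACTTCCTC. They occurred in 6 of 26 members (23.1%) and in 3.69% of 27025 genes in the table. A match is a description of the letters, and binding was not measured. Capitals mark the match, and the sequences run 5 prime to 3 prime on the strand of the gene.
C1qc (chr4:136893078-136893133, minus strand): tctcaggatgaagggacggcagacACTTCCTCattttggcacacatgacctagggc
Ctsc (chr7:88277910-88277965, plus strand): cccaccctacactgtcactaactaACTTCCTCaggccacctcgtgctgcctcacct
Pf4 (chr5:90772401-90772434, plus strand): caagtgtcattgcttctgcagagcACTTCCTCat
Ctss (chr3:95526773-95526802, plus strand): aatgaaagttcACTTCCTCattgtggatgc
Cd53 (chr3:106790125-106790154, minus strand): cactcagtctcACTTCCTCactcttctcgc
F13a1 (chr13:37049181-37049210, minus strand): cgagtccttttGAGGAAGTacccagaggca
The match begins 195, 151, 10 and 2 bases before the annotated start in C1qc, Ctsc, Pf4 and Ctss, and 7 and 15 bases after it in Cd53 and F13a1. Genes with the letters included some that were high in Ret-deficient replicate 3 (C1qc, Ctss and Cd53) and some that were not (Ctsc and Pf4).

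Other genes of the macrophage programme were taken from lists fixed by name, and none of their tested members passed limma after adjustment in either direction. Of 9 tested growth factor and chemokine genes 0 rose and 0 fell, with 0 at an unadjusted p under 0.05. The ligand Csf1 read 734.7, 314.7 and 508.5 in wild-type and 521.8, 326.6 and 541.4 in Ret-deficient kidneys, without the high value of its receptor in replicate 3. Il34, the other ligand, was not above the bacterial controls on any array. Csf1 and Il34 were named after their values were seen. The smallest p in this list belonged to the chemokine receptor Cxcr4 (log2 difference -0.97, SE 0.43) and the chemokines Ccl3 (0.92, SE 0.47) and Cxcl12 (0.28, SE 0.18). Among 8 tested transcription regulators 0 rose and 0 fell, with a median of 0.45. Cebpb, a factor of myeloid and many other cells, read 413.7, 555.2 and 402.7 against 848.1, 963.6 and 689.2 without overlap (0.85, SE 0.21, adjusted p = 0.86). Id3 and Maf had 0.56 and 0.46. Of the 8, 1 was highest in Ret-deficient replicate 3, and the list's array median was highest in replicate 2 (0.77).

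Of 20 listed surface genes of tissue macrophages, 4 were bright enough to test, 0 passed and 2 were highest in replicate 3. C3ar1 and C5ar1, receptors for complement fragments, read 1711 and 1156 in Ret-deficient replicate 3 against at most 440.5 and 582.9 on the other arrays. Tmem119, a gene also active in stroma and bone, did not peak there (5717 in replicate 3, 4776 to 8537 elsewhere), and neither did Tlr2, a receptor for bacterial lipoproteins (log2 difference -0.20). Of the 16 dim genes, 10 were highest in replicate 3, 5 in a wild-type array and 1 in another Ret-deficient array. With no filter, 17.5% of all genes were highest in replicate 3. Among the 10, P2ry12 (100.9) and Fcgr2b (130.3) lay under the brightest bacterial control of that array (133.4), so their order is not informative. Folr2, a folate receptor of resident macrophages, read 279.1, 189.0 and 137.5 in wild-type against 171.1, 112.2 and 136.5, and Siglec1 and Vsig4 were highest in wild-type replicate 1. Of the dim genes, named after their values were seen, Adgre1, which encodes the macrophage antigen F4/80, read 755.2 in replicate 3 and 56.7 to 183.5 on the others. Ms4a7 read 835.1 there and 31.3 to 148.9 on the others. Both were near background outside that array. Folr2, Siglec1 and Vsig4 were also named after their values were seen.

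Phagocytosis, lysosome and iron genes numbered 13 tested, of which 0 passed, 11 were positive and the median was 0.35. The proteases Ctsl and Ctsd and the lipoprotein Apoe had unadjusted p under 0.05 without overlap (beside 5.36% and 5.19% of all tested probe sets, and 50.5% of genes positive), at 0.55 (SE 0.18), 0.42 (SE 0.15) and 0.76 (SE 0.29). Ctsl read 6491 to 6654 in wild-type and 11744, 8755 and 8743 in Ret-deficient kidneys, so unlike Ctss it was highest in replicate 1. Of the 13, however, 8 were highest in Ret-deficient replicate 3, beside 19.1% of all tested genes. Of 9 leukocyte signalling genes 0 passed, with a median of 0.11. Of these 9, 0 were highest in Ret-deficient replicate 3, and the list's array median was highest in wild-type replicate 1 (0.73), with 0.36, -0.22 and 0.33 in the Ret-deficient arrays. Cyba, a subunit of the phagocyte oxidase made in many tissues, had 0.44 (SE 0.17). Ncf4, another subunit, had 0.69 (SE 0.31) and Plcg2, a phospholipase, -0.82 (SE 0.54).

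Markers of several other white blood cells were largely at background, while erythroid and megakaryocyte genes were not. Of the listed genes that the array annotation names, 6 of 10 neutrophil, 5 of 7 mast cell and 6 of 7 T and NK cell genes were above the bacterial controls on no array, as were 2 of 6 B cell, 2 of 4 monocyte, 1 of 9 erythroid and 0 of 6 megakaryocyte genes, and 0 tested genes passed in any of these lists. The B cell list had 2 tested genes with a median of -0.17. Plac8, the tested gene of the monocyte list, read 1205, 3677 and 4385 against 235.1, 3474 and 2612, not raised in replicate 3. Prtn3 and Mpo, made by immature neutrophils, had 0.40 (SE 0.19) and -1.27 (SE 0.77). The erythroid median stood at 1.43 in Ret-deficient replicate 2 and -0.14 in replicate 3, so red cell genes peaked on another array than macrophage genes. Liver genes such as Alb and Afp summed to 1156 to 1884 signal units in the groups, with the lowest sum in Ret-deficient replicate 3.

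Beside the high macrophage values of replicate 3, the median of matrix genes of stroma was high and that of cell cycle genes low. The median of 8 tested matrix genes stood at 0.95, 0.39 and 1.32 above the wild-type mean in Ret-deficient replicates 1, 2 and 3. The resident macrophage median had the same order, but lay below the wild-type mean in replicate 2 (-0.28). The list's summed signal was 67580 to 90845 in wild-type and 100190 to 121650 in Ret-deficient kidneys. Dcn, Fbln5 and Mgp had the smallest p of these, and 0 of 8 passed. Of the 8, 4 were highest in replicate 3, these 3 genes among them, while Col3a1 and Lum were higher in replicate 1. The 8 tested cell cycle genes had a median of -0.45 in replicate 3 and -0.12 to 0.13 in the other arrays. Endothelial genes were not high there, as the median of 11 was -0.27 in replicate 3, within -0.35 to 0.34 of the wild-type arrays, and lymphatic genes stood at -0.39. The single tested muscle gene, Actc1, read 463.6 to 13072 in wild-type and 1107 to 7082 in Ret-deficient kidneys, and cartilage genes had a median of 0.29 over 2. Ureteric markers had medians of -3.72, -0.11 and -0.66 in Ret-deficient replicates 1, 2 and 3, and those of nephron progenitors were -0.26, 0.01 and 0.22. Neither order is that of the macrophage genes. The 3 prime to 5 prime ratio of beta-actin in replicate 3, 5.21, was the second highest. Its Gapdh ratio, 2.28, lay below those of wild-type replicate 1 (4.91) and Ret-deficient replicate 1 (2.31). The part of any of these in the macrophage values was not tested.

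**Figure D4:**
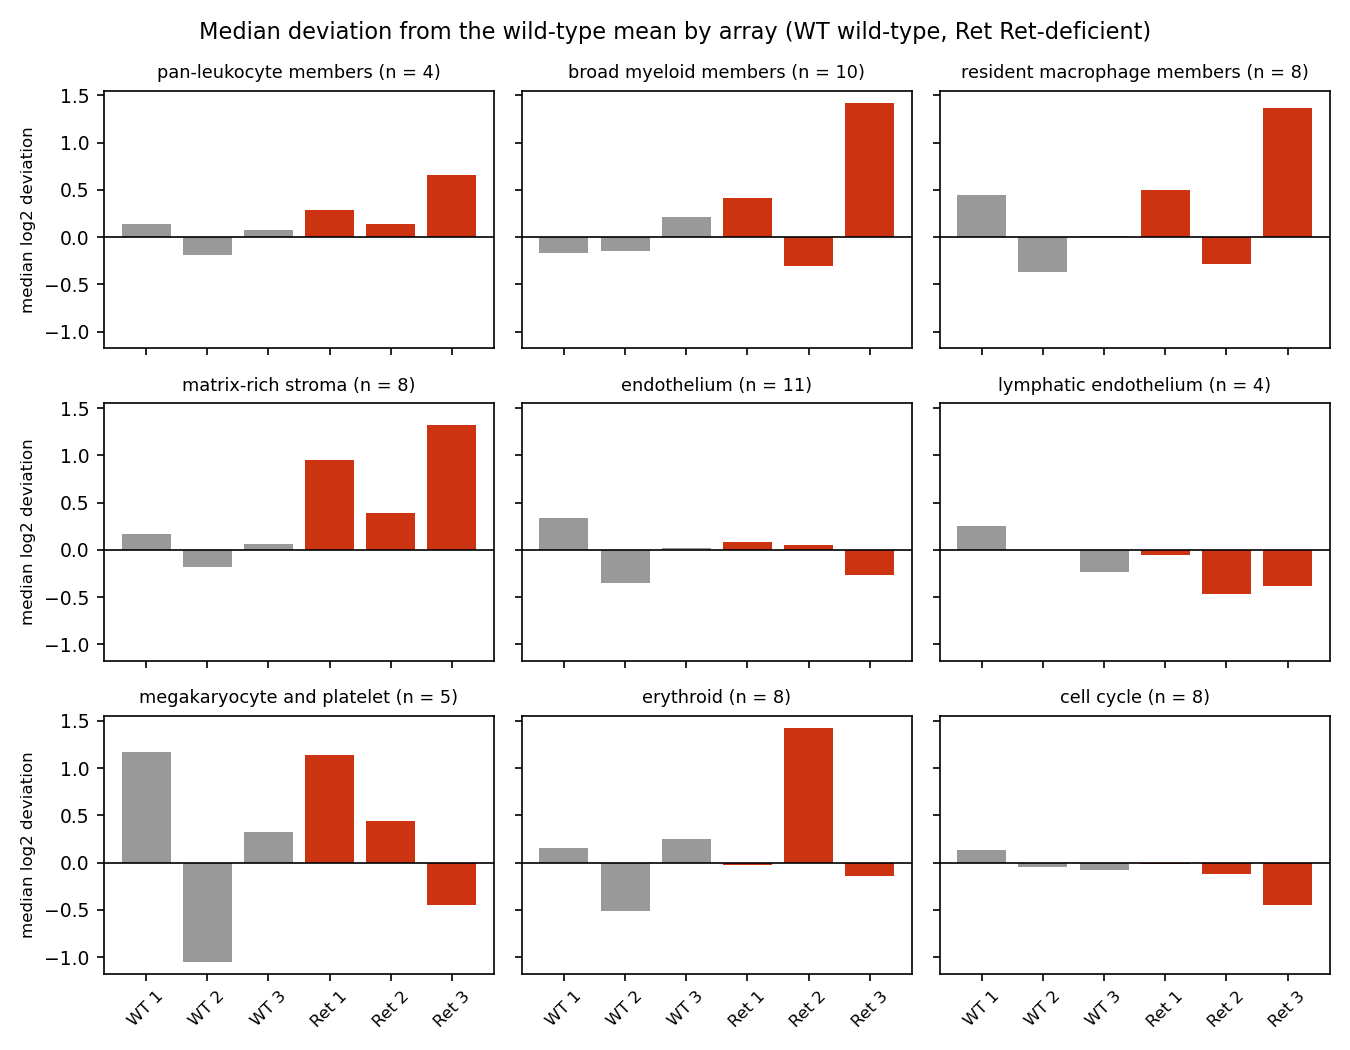
Median log2 deviation from the wild-type mean (vertical axis) per array for the 3 member classes and 6 marker lists, with grey bars for wild-type and red bars for Ret-deficient arrays and n for tested genes. The resident macrophage, myeloid and matrix medians are highest in Ret-deficient replicate 3, the erythroid median in replicate 2, and the megakaryocyte median in wild-type replicate 1.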

How the data were processed

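Values are MAS5 signal intensities deposited by the authors, per the submitters' processing notes. The series text names NuGEN Ovation amplification of the RNA while the samples' protocol describes standard Affymetrix labelling. Neither the MAS5 version nor the scaling target is stated. All columns shared a mean of 2500 after trimming 2 percent at each end. The members and lists were chosen with earlier results of these data known.

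The 64 control probe sets were left out. The brighter part of the array was tested, that is 22519 of 45101 probe sets whose signal averaged over 6 arrays reached the array-wide median of 304.5. Signals were used as log2(signal + 16), which understates changes of dim genes, without further normalization. Symbols came from the platform annotation, and 34958 probe sets had 1 symbol, 932 several and 9211 none. The genotypes were tested using limma 3.58.1 under R 4.3.3, by lmFit and eBayes with Benjamini-Hochberg adjustment over all tested probe sets at a threshold of 0.05. The code was tested on simulated data. A gene was represented by its brightest tested probe set. Levels of different probe sets were not compared. The number of arrays limits the precision.

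Alternatives were pseudocounts of 1 and 64, no brightness filter or a 30 percent one, median centring, quantile normalization, a replicate block, array quality weights, an intensity trend, averaged probe sets per gene, an adjusted p of 0.1, and each array left out. A filter on the wild-type mean was added after seeing the data. Named were all members, and from each list the genes past the test or otherwise up to 3 with the smallest p. Other list genes were named outside this rule, among them Ppbp, Itga2b, Tlr2, Col3a1, Lum, P2ry12 and Fcgr2b.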

Additional observations from a re-analysis of the deposited data

How the results depend on the processing

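No member probe set passed the limma threshold under any alternative run, an adjusted p of 0.1 and the added wild-type filter included. At an unadjusted p under 0.05 there was 1 with the main settings, and 0 with the brightest 30 percent or the wild-type filter. There were 12 when Ret-deficient replicate 2 was left out and 4 with the replicate number as a block. Replicate 2 was the Ret-deficient array where the members read lowest (median -0.21 from the wild-type mean). Shares of all tested probe sets were not counted under these settings, so 12 and 4 cannot be set against other genes. The block left the number of calls at 0. Same-numbered arrays were not treated as pairs, as their deviations from the group means correlated at 0.041, -0.036 and -0.11, and not every array correlated best with its own number. Median centring shifted the median of all tested probe sets from -0.0097 to 0.10. The pan-leukocyte median ranged from 0.16 (without wild-type replicate 2, or without Ret-deficient replicate 3) to 0.49 with 1 array left out, that of all members from 0.13 to 0.93, the broad myeloid from 0.092 to 0.95 and the resident from 0.13 to 0.93, these 3 lowest without Ret-deficient replicate 3 and highest without Ret-deficient replicate 2. The sign turned for Ctsc (0.010) and Pf4 (0.84) with array quality weights and for Pf4 (0.074) with median centring. With 1 array left out these members changed sign, with ranges of -0.17 to 0.88 for Fcgr3, -0.20 to 0.53 for Lyz2, -0.43 to 0.062 for Ctsc, -0.24 to 0.52 for Cd68, -0.024 to 0.98 for Mrc1, -0.44 to 0.12 for Stab1, -0.96 to 0.68 for F13a1 and -0.57 to 0.50 for Pf4. The cause was not tested. The other 14 tested members kept their direction. Low signal over background limits Trem2, Cd163, Itgam, Cd14 and Lyve1.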
